A study of Mus musculus with 6 samples.

Results

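The granule and processing genes of enteroendocrine cells were described here as a group of 10 genes: Chga, Chgb, Scg2, Scg3, Scg5, Scgn, Cpe, Pcsk1, Pcsk2 and Tph1. They were found as the non-control probes whose RefSeq accession maps to these symbols, which gave 12 probes of 56605 on the array. Chgb was printed as 10 spots of 1 probe, Tph1 had 3 probes, and each of the other members had 1 probe. The RNA came from isolated crypts, the pockets of the mouse intestinal lining that hold its stem cells, of mice of mixed strain in which both Arid1a alleles carry recombination sites. Arid1a encodes a subunit of the BAF chromatin-remodelling complex. The 3 control samples (Arid1a f/f) carry these alleles without Cre, and the 3 knockout samples (Villin-Cre; Arid1a f/f) also carry Cre under the Villin promoter, which is active across the intestinal epithelium and so not limited to enteroendocrine cells. Ages are not given in the sources used here. Every sample had an array of its own, with a single dye.

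The labels of knockout 2 and control 3 contradict each other, and groups follow the title and description. Both arrays lay with that group for Arid1a, whose log2 signal was 3.71, 3.47 and 4.01 on controls and 2.20, 2.07 and 2.51 on knockouts. Controls 1 and 2 and knockouts 1 and 2 were on slide 1, and control 3 and knockout 3 on slide 2. Whether replicates were different animals is not stated, and the p-values therefore describe only how far these samples scatter, which may be technical. Levels below are log2 signals relative to the array's 75th percentile. Differences are knockout minus control on the log2 scale, ± SE, from limma over 13492 genes, with 3 arrays per group and Benjamini-Hochberg adjusted p-values, and genes with an adjusted p under 0.05 are said to have risen or fallen. A signal is called well above background by the array software's own flag.

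Enteroendocrine cells are scattered hormone-producing cells of the gut lining that store their products in dense-core granules. Granins, acidic proteins such as Chga and Chgb, condense in the forming granule. Prohormones are then cut at paired basic residues by the convertases Pcsk1 and Pcsk2, and Cpe trims the basic residues left behind. Tph1 makes serotonin in the enterochromaffin cells, a subtype of this lineage.

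The stretch around the transcription start is shown for the 4 members whose knockout arrays lay wholly apart from the control arrays (RefSeq, GRCm38.p6). Each runs from 250 bases before to 50 after the start, 5′ to 3′ on the strand of the gene, and the capitals mark TGACG or its reverse complement, the core of the cAMP response element.
Pcsk1 (chr13:75089607-75089906, plus strand): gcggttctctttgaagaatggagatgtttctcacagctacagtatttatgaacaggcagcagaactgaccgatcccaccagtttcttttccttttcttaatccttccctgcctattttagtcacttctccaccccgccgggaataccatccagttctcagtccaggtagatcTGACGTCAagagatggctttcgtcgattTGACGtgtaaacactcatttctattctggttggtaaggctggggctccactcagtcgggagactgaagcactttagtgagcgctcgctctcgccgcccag
Chga (chr12:102554691-102554990, plus strand): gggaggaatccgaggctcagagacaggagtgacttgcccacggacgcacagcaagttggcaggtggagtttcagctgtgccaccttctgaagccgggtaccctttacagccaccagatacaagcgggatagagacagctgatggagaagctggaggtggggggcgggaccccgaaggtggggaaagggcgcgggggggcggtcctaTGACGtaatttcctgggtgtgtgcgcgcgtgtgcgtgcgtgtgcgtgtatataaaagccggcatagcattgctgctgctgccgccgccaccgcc
Scg3 (chr9:75684007-75684306, minus strand): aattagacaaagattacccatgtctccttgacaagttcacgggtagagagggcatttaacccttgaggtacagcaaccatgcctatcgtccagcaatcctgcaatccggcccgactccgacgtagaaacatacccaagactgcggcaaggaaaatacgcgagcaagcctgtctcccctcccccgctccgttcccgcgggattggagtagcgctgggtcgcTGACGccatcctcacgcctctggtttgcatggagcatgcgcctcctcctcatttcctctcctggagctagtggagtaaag
Pcsk2 (chr2:143545883-143546182, plus strand): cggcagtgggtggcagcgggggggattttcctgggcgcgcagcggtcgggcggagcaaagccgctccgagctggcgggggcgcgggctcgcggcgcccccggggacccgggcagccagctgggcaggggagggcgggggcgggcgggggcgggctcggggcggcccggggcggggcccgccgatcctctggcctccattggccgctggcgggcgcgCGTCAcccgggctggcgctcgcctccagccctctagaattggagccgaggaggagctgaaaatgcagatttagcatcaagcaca
The full palindrome TGACGTCA lay 78 bases before the start in Pcsk1. It was also present in Chgb and Scg2, where it is shown in capitals within 30 bases.
Chgb (chr2:132781559-132781588, plus strand): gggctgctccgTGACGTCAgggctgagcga
Scg2 (chr1:79440076-79440105, minus strand): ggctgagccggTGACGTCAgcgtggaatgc

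TGACG, on either strand, was present in 8 of the 9 members with a RefSeq start region, and in 23% of 27025 genes (20.8% of 32851 windows). Scgn was the member without it, and Cpe had no entry in the table. The palindrome, which contains TGACG on both strands, was found in 3 of these 9 members and in 2.03% of all genes. In Chga the TGACG 44 bases before the start is part of TGACGTAA, which was present in 0.581% of genes. Of the other motifs searched, again on both strands, CCGCCC was found in 7 of 9 members (38.2% of genes), CAGCTG in 3 (18.3%) and TATAAA in 1 (15.7%). Members that differed in their response shared TGACG: Pcsk1 rose and Chga, Scg3 and Pcsk2 did not pass the test. A match of letters does not show that a factor binds there.

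Pcsk1 was the member that rose in the knockout. This gene encodes prohormone convertase 1/3, which in enteroendocrine cells cuts precursors such as proglucagon. Its log2 signal was 0.38, -0.20 and 0.20 in the controls, in the order 1, 2, 3, and 2.93, 2.57 and 2.85 in the knockouts. Every knockout array was thus above every control array, and the 3 knockouts lay within 0.36 of each other. The difference was 2.66 ± 0.21 (limma adjusted p = 0.00104), a 6.31-fold rise, with an unadjusted 95% interval of 2.17 to 3.15. Of 23462 genes named on the array 13492 were tested, and of the members 9 of 10. Of these 9, 1 rose, where 7.28% of all genes did, and 0 fell in limma, where 7.63% did (14.9% in either direction). An unadjusted limma p under 0.05 was found for 4 members, Pcsk1 and Pcsk2 higher and Chga and Scg3 lower. Of all 13492 genes, 4618 had such a p. The sign was negative for 7 of the 9, against 50.9% of all genes, and their median was -0.21. The difference in Pcsk1 was 2.66 on slide 1 and 2.66 on slide 2, and a slide block gave an adjusted p of 0.00280. Leaving out knockout 2 and control 3 gave 2.80 (adjusted p = 0.0260). Grouped by source name and genotype instead, the difference was 1.08 (adjusted p = 0.999). With every kept probe as a feature, Pcsk1 passed (adjusted p = 0.00173), where 5.85% of probes were higher, 4.51% lower and 10.4% either. It passed without a filter on dim probes too (adjusted p = 0.00620), where 1.56% of genes were higher, 1.41% lower and 2.97% either.

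**Figure D1:**
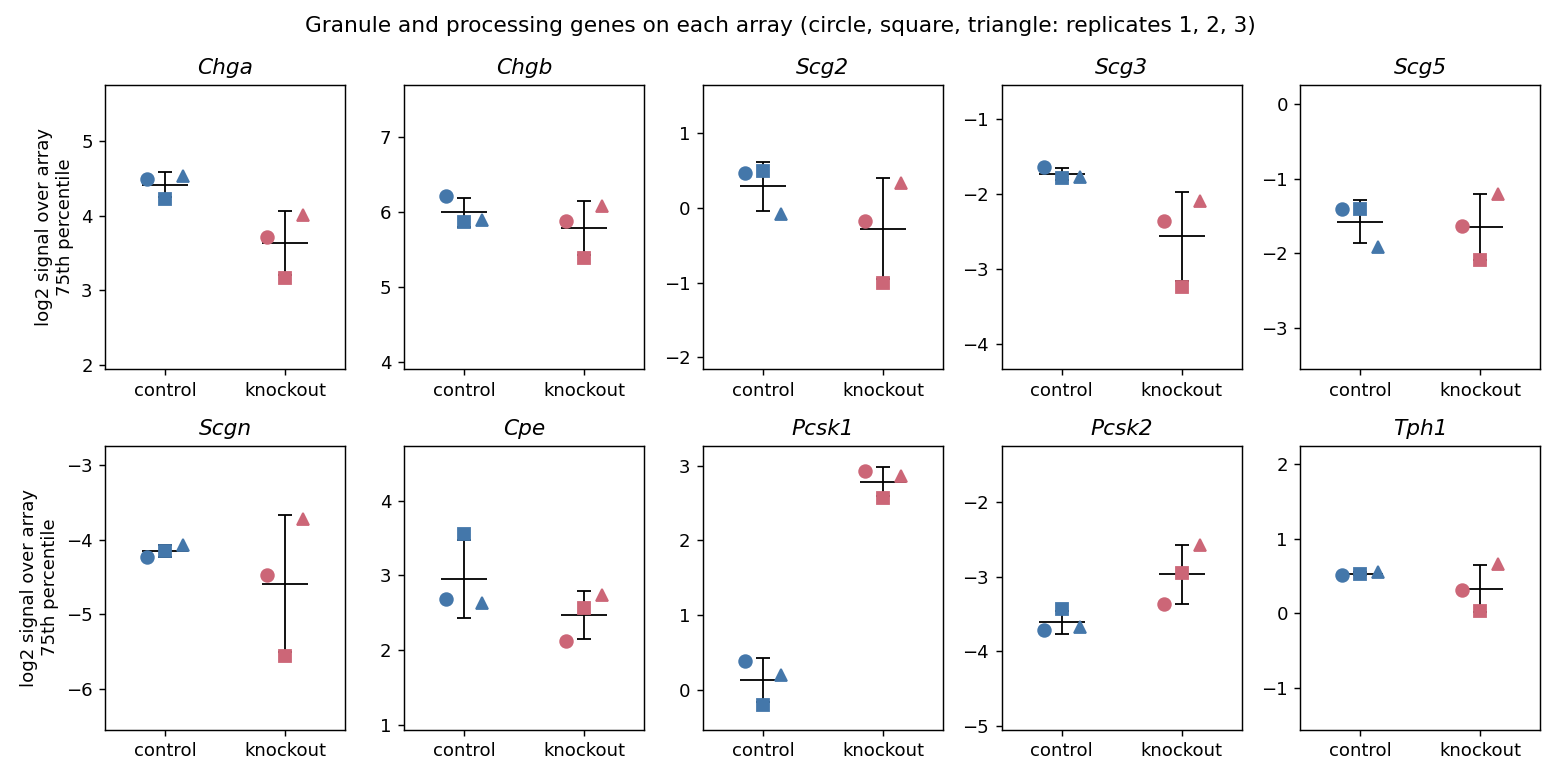
Log2 signal of each member relative to the array's 75th percentile (y axis, each panel spanning the same number of log2 units), by group (x axis), for the brightest probe of each gene. Points are single arrays, circle, square and triangle for replicates 1, 2 and 3, and the bar and whiskers give the mean ± SD of 3 arrays; Pcsk1 is far higher on all 3 knockout arrays, and knockout 2 is the lowest knockout array in most other panels.

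Pcsk2 encodes the second neuroendocrine convertase, and its difference had the same sign without passing the test. It was dim: 1 of 3 control arrays and 3 of 3 knockout arrays were well above background, so it entered the test mainly through the knockout group. Its log2 signal was -3.71, -3.43 and -3.68 on controls and -3.37, -2.95 and -2.58 on knockouts. The groups did not overlap, but knockout 1 lay only just above the highest control. The difference was 0.64 ± 0.23 (adjusted p = 0.107), with a 95% interval of 0.09 to 1.19. It depended on the arrays and the scaling: leaving out knockout 1 gave 0.84 (adjusted p = 0.0261), and leaving out knockout 3 gave 0.45 (adjusted p = 0.225). It was 0.34 after normexp correction (adjusted p = 0.189) and 0.39 with the array median as scale (adjusted p = 0.258). Scg5 encodes 7B2, the chaperone that Pcsk2 needs to mature. It gave -1.40, -1.41 and -1.91 on controls and -1.64, -2.09 and -1.20 on knockouts, with overlapping groups and a difference of -0.07 ± 0.27 (adjusted p = 0.873, interval -0.72 to 0.58). Its difference was -0.46 on slide 1 and 0.71 on slide 2, so the sign of the Scg5 value was not settled.

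Cpe encodes carboxypeptidase E, which acts after the convertases. Its log2 signal was 2.68, 3.55 and 2.63 on controls and 2.12, 2.56 and 2.74 on knockouts. Control 2 was far above the other controls, and the groups overlapped. The difference was -0.48 ± 0.30 (adjusted p = 0.299), with a 95% interval of -1.20 to 0.24. Without control 2 it was -0.18. Set within each array against the 8 other tested members, Pcsk1 changed by 2.02 (against Pcsk2) to 3.49 (against Scg3) more on the log2 scale. In each of these 8 pairs the within-array difference on every knockout array was above that on every control array. These differences follow from the separation of Pcsk1 itself and are a description, with no test.

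**Figure D2:**
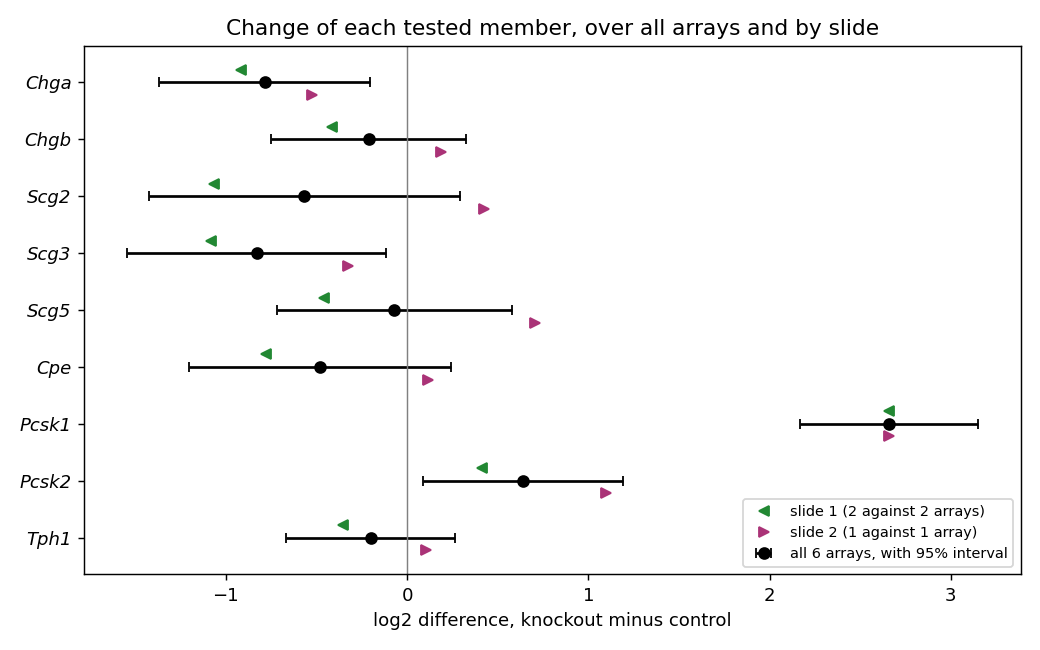
Log2 difference, knockout minus control (x axis), of the 9 tested members (y axis). Black points with bars are the difference over all 6 arrays with its unadjusted 95% interval, left-pointing triangles the difference on slide 1 (2 against 2 arrays) and right-pointing triangles that on slide 2 (1 against 1); for Pcsk1 both slides give 2.66, whereas for 5 members the slides differ in sign.

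Chga, the chromogranin that is the usual marker of the enteroendocrine lineage, was lower on every knockout array but did not pass the test. The controls gave 4.49, 4.22 and 4.53 and the knockouts 3.72, 3.17 and 4.0. Knockout 2 was the farthest below the controls and knockout 3 the nearest. The difference was -0.79 ± 0.24 (adjusted p = 0.0744), with a 95% interval of -1.37 to -0.20. It was -0.92 on slide 1 and -0.53 on slide 2. In bulk RNA, fewer cells of a type and less RNA per cell cannot be told apart. With each array scaled to its median, which moved the median gene by -0.26, the difference in Chga was -1.03 (adjusted p = 0.0487), and leaving out knockout 2 and control 3 gave -0.50 (adjusted p = 0.354).

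Scg3 encodes secretogranin III, which binds Chga and holds it at the granule membrane. It gave -1.64, -1.79 and -1.77 on controls and -2.36, -3.24 and -2.09 on knockouts, and was well above background on 2 of 3 knockout arrays. The groups did not overlap, as for Chga. The difference was -0.83 ± 0.30 (adjusted p = 0.108), with a 95% interval of -1.55 to -0.11. Among the tested members, 2 lay wholly higher (Pcsk1 and Pcsk2) and 2 wholly lower (Chga and Scg3) on the knockout arrays. Over all genes these shares were 19.0% and 20.7%, or 39.7% in either direction.

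The remaining granins overlapped between groups. Chgb, chromogranin B, gave 6.22, 5.87 and 5.89 on controls and 5.88, 5.39 and 6.08 on knockouts. Knockout 3 lay among the controls and knockout 2 below all of them. The difference was -0.21 ± 0.23 (adjusted p = 0.534, interval -0.75 to 0.33). The 10 spots of its probe had an SD of 0.03 to 0.05 within an array, which leaves out labelling and hybridisation error. Scg2, secretogranin II, the precursor of secretoneurin, gave 0.46, 0.49 and -0.09 on controls and -0.18, -1.0 and 0.34 on knockouts. Its difference was -0.57 ± 0.36 (adjusted p = 0.299, interval -1.43 to 0.29), with -1.06 on slide 1 and 0.43 on slide 2.

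Tph1 encodes the rate-limiting enzyme of serotonin synthesis outside the brain. Its brightest probe gave 0.51, 0.53 and 0.56 on controls and 0.31, 0.03 and 0.66 on knockouts. The controls lay within 0.05 of each other, while the knockouts spread on both sides of them. The difference was -0.20 ± 0.19 (adjusted p = 0.493, interval -0.67 to 0.26). A second probe, well above background on 2 arrays of each group, differed by -0.005, and the third stayed at background on all 6 arrays. Scgn encodes secretagogin, a calcium-binding protein of neuroendocrine cells. It was well above background on 1 array of each group and was not tested. Its log2 signal was -4.24, -4.15 and -4.07 on controls and -4.48, -5.56 and -3.73 on knockouts, a difference in means of -0.44 that rests on dim signals.

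The knockout arrays differed from each other in a way that most members shared. Knockout 2 was the lowest knockout array for 8 of the 10 members, the exceptions being Cpe and Pcsk2, whereas it was the lowest for 20% of all tested genes. Knockout 3 was the highest for 9 of the 10, Pcsk1 being the exception, against 35.6% of all genes. On knockout 2, 8 members lay below all controls and 2 above all of them. On knockout 3, 2 lay below and 5 above, and on knockout 1 these numbers were 6 and 2. Over all tested genes, 38.5% lay below and 37.9% above on knockout 2. These shares were 40.8% and 39.4% on knockout 3, and 34.7% and 31.4% on knockout 1. Deviations from the control mean on knockout 2 ranged from -1.50 in Scg3 and -1.41 in Scgn to 2.44 in Pcsk1. Since the 10 genes share cells and arrays, these counts are not independent. Knockout 2 is 1 of the 2 arrays with contradicting labels, and its part in the lower means was measured by leaving it out. The differences were then -0.55 in Chga, -0.49 in Scg3, -0.21 in Scg2, -0.05 in Tph1, -0.01 in Chgb and 0.15 in Scg5, and none of these 6 passed. Cpe became more negative instead, from -0.48 with all arrays to -0.52, and did not pass either.

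**Figure D3:**
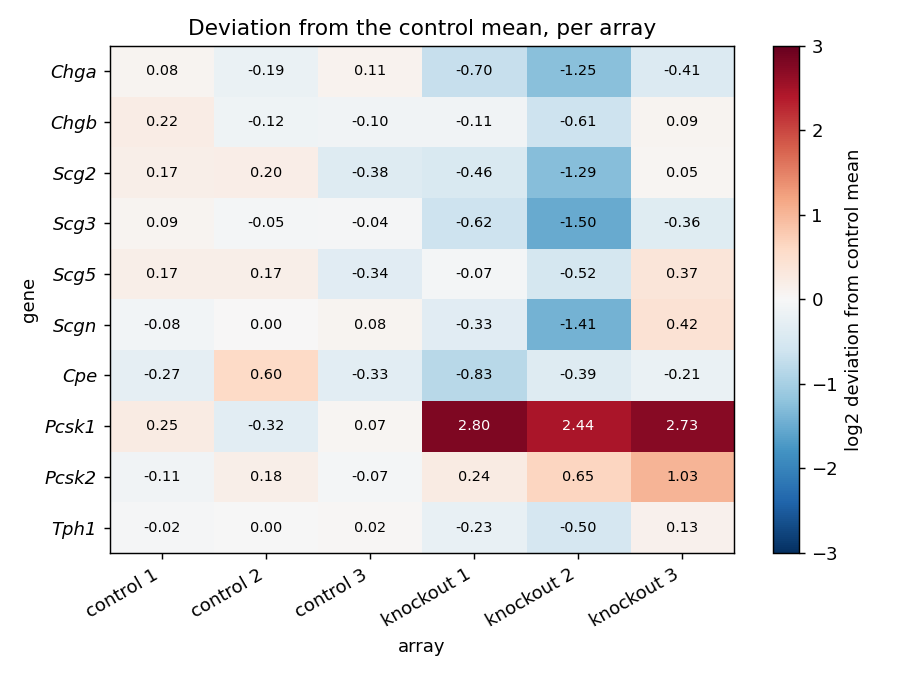
Log2 deviation from the mean of the 3 control arrays (colour and printed value) for the brightest probe of each member (y axis) on each array (x axis). Knockout 2 has the lowest value of the 3 knockouts for 8 of 10 members, and Pcsk1 lies 2.44 to 2.80 above the control mean on all 3 knockouts.

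Since slide 1 holds knockouts 1 and 2 and slide 2 knockout 3, the values by slide restate this pattern and are no further support for it. On slide 1 the difference was negative for 7 of 9 tested members, and on slide 2 for 2 of 9, Chga and Scg3. The sign differed between slides for 5 members (55.6%), against 18.8% of all genes. Slide 2 holds 1 array per group. When limma weighted arrays by their quality, knockout 2 had a weight of 6.35 and the other arrays 0.28 to 1.39. With these weights 5 members fell (Chga, Chgb, Scg2, Scg3 and Tph1) and 2 rose, where 26.7% of all genes fell and 25.9% rose (52.6% either).

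The genes nearest to a member in pattern were those with the smallest Euclidean distance over the 6 arrays, each gene being centred on its mean. For Pcsk1 they were Il18bp (distance 0.489), Ddah1 (0.545) and Enpp1 (0.662), with differences of 2.64, 2.99 and 2.43. For Chga they were Lrig3 (0.156), Lctl (0.166) and Jade1 (0.241), with differences of -0.84, -0.72 and -0.85. No member was among these 6 genes.

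Other genes of the same steps were taken from lists chosen with earlier results of these data known. Other convertases and their inhibitors did not follow Pcsk1 past the test: 0 of 8 rose or fell in limma, where 14.9% of all genes did. The sign was positive in 6 of the 8. In 4 the knockout arrays lay wholly above the controls and in 1 wholly below, against 19.0% and 20.7% of all genes. Their median difference was 0.42, where the median of all genes was -0.01. In limma 3 of these 8 had an unadjusted p under 0.05, where 4618 of all 13492 genes did. Pcsk4, a germ cell convertase, differed by 1.15 ± 0.34 (adjusted p = 0.0650) and Pcsk6 by 0.95 ± 0.29 (adjusted p = 0.0699), each with groups that did not overlap. Enzymes that trim or modify peptides also gave 0 of 8 past the test, beside the same 14.9% of all genes. Their median was 0.22, and 1 had an unadjusted limma p under 0.05 (Cpm, a membrane carboxypeptidase, -0.86 ± 0.31). Qpctl, a glutaminyl cyclase, differed by 0.36 ± 0.24 (adjusted p = 0.314).

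Around Tph1, members of the serotonin list went in both directions. Of 11 measured genes 2 rose and 1 fell, where 7.28% of all genes rose and 7.63% fell. The list median was -0.23. Gch1, the first enzyme of the synthesis of tetrahydrobiopterin, the cofactor of Tph1, rose by 1.66 ± 0.22 (adjusted p = 0.00587). Its log2 signal was 4.21, 4.16 and 4.45 on controls and 5.54, 6.08 and 6.19 on knockouts. Slc18a1, a vesicular monoamine transporter, rose by 0.78 ± 0.20 (adjusted p = 0.0487). Dnajc12, a co-chaperone of aromatic amino acid hydroxylases such as Tph1, had a difference of -1.08 ± 0.24 (adjusted p = 0.0305) and so fell. Maob, which degrades amines and was chosen after its values were seen, had -4.74 ± 1.33 (adjusted p = 0.0582), with -1.93 and -2.27 on knockouts 1 and 2 but 2.98 on knockout 3, against 3.92 to 4.79 on controls.

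Genes of granule formation and exocytosis were measured beside the members. Of 19 measured genes 6 fell and 0 rose, with a median of -0.28 and a negative sign in 13, where 7.63% of all genes fell. Rab3a, a GTPase of secretory vesicles, had a difference of -1.11 ± 0.15 (adjusted p = 0.00597), with 1.09, 1.12 and 1.12 on controls and 0.08, 0.07 and -0.15 on knockouts. Ptprn2, a granule membrane protein, had -1.25 ± 0.18 (adjusted p = 0.00890) on its brighter probe but 0.39 on its other probe. Others that fell were the synaptotagmin Syt13 at -1.22 and the GTPases Rab3c at -1.51 and Rab27b at -0.97. Rab3c was dim, being well above background on 2 control arrays and 1 knockout array. In 9 of the 19 the knockout arrays lay wholly below the controls and in 1 wholly above, against 20.7% and 19.0% of all genes. The number that fell was 3 without control 1, without control 2 or without control 3, and 0 without both arrays with contradicting labels.

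**Figure D4:**
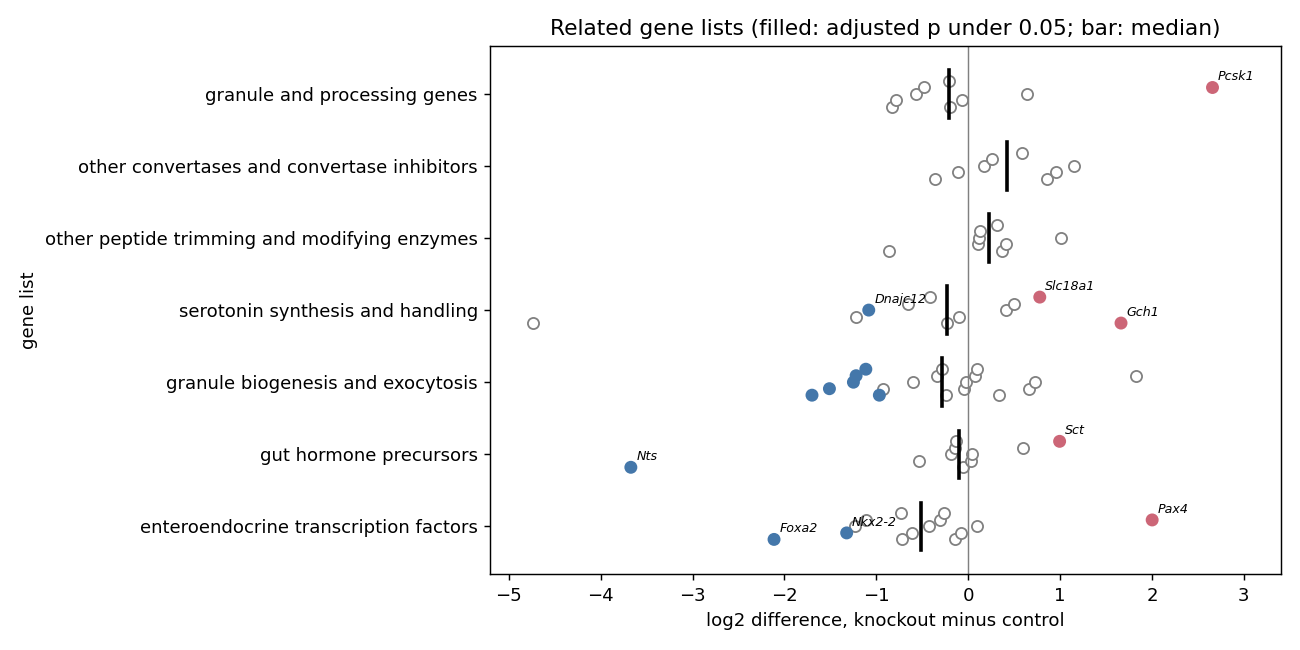
Log2 difference, knockout minus control (x axis), of every tested gene in 7 lists (y axis). Filled points passed an adjusted p of 0.05, open points did not, and bars are list medians; Pcsk1 stands apart from the other granule and processing genes, and 6 filled points lie on the lower side in the granule biogenesis and exocytosis list.

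Hormone precursors and transcription factors listed for the enteroendocrine lineage were measured beside the members. Whether each of them is limited to that lineage in these crypts was not tested. Among 10 hormone precursors 1 rose and 1 fell: Sct, secretin, by 1.0 ± 0.22 (adjusted p = 0.0310), and Nts, neurotensin, at -3.67 ± 0.52 (adjusted p = 0.00749). Their median was -0.10, and knockout 2 was the lowest knockout array for 8 of 10, against 20% of all tested genes. Among 14 transcription factors 1 rose and 2 fell, with a median of -0.52. Over all genes 7.28% rose and 7.63% fell, which is the background for the counts of both lists. Foxa2 had -2.11 ± 0.35 (adjusted p = 0.0130), Nkx2-2, dim in both groups, -1.32 ± 0.34 (adjusted p = 0.0469) and Pax4 2.0 ± 0.51 (adjusted p = 0.0459). Knockout 2 was the lowest knockout for 10 of the 14 transcription factors, against the same 20% of all tested genes.

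Other cells that can express granule genes were checked by their markers. Of 13 enteric neuron genes 5 stayed at background throughout (among them Prph, Stmn2 and Vip), and 6 were tested. None of these 6 passed limma's adjusted threshold, where 14.9% of all genes did. An unadjusted limma p under 0.05 was found for 3, where 4618 of all 13492 genes had one. They were Nos1 at 0.67 ± 0.19, Chat at 1.67 ± 0.65 and, in the other direction, Nefm at -0.56 ± 0.23. Chat was dim, being well above background on 1 control and 2 knockout arrays. Nefm was so on 3 control arrays and 1 knockout array, and entered the test mainly through the controls. The summed signal of the neuron list, in multiples of the array's 75th percentile, was 0.90 to 0.97 on controls and 0.93 to 1.22 on knockouts. The islet hormones Ins1, Ins2 and Ppy were not well above background on any array, nor was G6pc2, and the islet list summed to 14 to 25.35 on controls and 16.85 to 28.2 on knockouts, with 0 of 3 tested past limma's adjusted threshold and 1 at an unadjusted p under 0.05. The islet genes with the smallest p-values were Mafa at 0.54 ± 0.22 and Slc2a2 at 0.28 ± 0.33. Of 10 mast cell genes, 4 were at background throughout, including Cpa3 and Cma1, and 1 of 5 tested fell, Kit at -1.28 ± 0.29. The other 4 tested had a positive sign, and the median of the mast cell list was 0.22. In limma 7.63% of all genes fell and 7.28% rose. Hdc, well above background on 1 control and 2 knockout arrays, differed by 0.86 ± 0.51. The T cell list summed to 34.9 to 122.2 on controls and 47.4 to 123.3 on knockouts, with 1 of 7 risen (Thy1 by 1.92 ± 0.37, with Cd3d at 0.81 ± 0.58 next by p-value). The stromal list summed to 26.7 to 39.3 and 45.3 to 68.9, with 8 of 11 genes at background on all arrays. Acta2 rose by 0.91 ± 0.24, while Pecam1 differed by 0.53 ± 0.30. Nearly all of the stromal sum is Acta2, at log2 4.72 to 5.29 on controls and 5.49 to 6.10 on knockouts. The sum thus restates the rise of that gene and is no separate evidence. The part of these cells in the rise of Pcsk1 was not tested.

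Other epithelial lineages were checked in the same way, by sums that the brightest genes of a list dominate. Over all genes 7.63% fell in limma, which is the background for the counts of fallen markers below. Summed goblet cell markers were 1519 to 1636 on controls and 709.8 to 1129 on knockouts, with 3 of 7 fallen. Paneth cell markers summed to 1771 to 1922 and 212.7 to 1074, with 3 of 5 fallen, and stem cell markers to 54.05 to 75 and 5.10 to 28.7, with 1 of 4 fallen. Enterocyte markers summed to 2773 to 3466 and 2188 to 4247, with 1 of 8 fallen, and tuft cell markers to 1.01 to 1.54 and 1.13 to 1.36. Enterocyte and tuft cell sums overlapped between the groups. The genes with the smallest p-values were Clca1 at -1.05 and Zg16 at -1.09 for goblet cells, Itln1 at -2.94 and Mmp7 at -2.74 for Paneth cells, and Ascl2 at -3.09 and Slc12a2 at -2.10 for stem cells. For enterocytes they were Lct at -5.10 and Apoa1 at -1.10, and for tuft cells Dclk1 at -1.14 and Trpm5 at 0.49. Of these 10, Slc12a2, Apoa1, Dclk1 and Trpm5 did not pass. Unlike Lct and Apoa1, 6 of the 8 enterocyte markers had a positive sign, and the median of that list was 0.25.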

How the data were processed

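RNA of 6 samples of isolated mouse crypts was labelled with Cy3, per the labels, and measured on 1 one-colour Agilent array each. Spot intensities were extracted by the authors in Agilent Feature Extraction. The file headers give its version as 12.0.3.1, whereas the submitters' processing notes give 11.5.1.1. The processed intensity, per the file headers, is background-subtracted within its array and not scaled between arrays. The series table that the authors deposited has log2 values centred per probe. These matched the scanner values on the 75th percentile scale (differences between arrays correlated at r = 1) and served as an alternative; its column medians were 0.196, 0.0606 and -0.322 for controls and -0.0717, 0.214 and -0.183 for knockouts.

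Spots that are controls or carry an outlier flag were dropped, the log2 values of a probe's spots averaged and each array's 75th percentile subtracted; no probe was saturated. That percentile was at a signal of 204.5 to 295.3, and the share of probes well above background ran from 41.7% to 54.7%; the number of arrays limits precision. Probes were named by unversioned RefSeq accession (33767 of 56605 matched; GRCm38.p6, used for names and start regions only, since the array's own build is another, per the file headers). Probes well above background on at least 3 arrays and without a missing value were kept, with the brightest probe per gene. The fit was limma 3.58.1 in R 4.3.3 without covariates, tested on simulated data. Members, lists and tests were chosen with earlier results of these data known. Named genes are the members, Arid1a, the 2 smallest p-values of each list described and the 3 genes nearest to Pcsk1 and to Chga. Genes named outside this rule, among them Maob and the list members named as fallen, risen or at background, were chosen after their values were seen. Alternatives covered labels, blocks, scaling, background, filters, probe choice, variance model, thresholds and each array left out. Some results are not reported here.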

Additional observations from a re-analysis of the deposited data

How the results depend on the processing

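Pcsk1 kept its direction under all 24 alternatives (1.08 to 2.80) and its call under 23; grouping by source name and genotype ended it, with 0 members called, and turned the sign of Chga (0.12), Chgb (0.13), Scg2 (0.0407), Scg3 (0.15), Scg5 (0.0512) and Tph1 (0.15). Scg5 was also positive after normexp correction (0.0624), without control 1 (0.0141), without control 2 (0.0129) and without knockout 2 (0.15), with a range of -0.2916 to 0.1532 when 1 array was left out. Cpe and Pcsk2 kept their sign under every alternative that tested them. The numbers of members that rose and fell were 1 and 0 under most alternatives. They were 1 and 1 with the replicate number as a block, with the array median as scale and at an adjusted p under 0.10, and 2 and 5 with array weights, in which knockout 2 weighs most. With 1 array left out they were 1 to 2 and 0 to 0.

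Whether the replicate numbers pair the samples is not settled by the check used: deviations of same-numbered arrays correlated at 0.25, 0.08 and 0.35. Arrays of different numbers gave -0.28 to 0.02. Control 3 and knockout 3 also share slide 2. With the replicate block Chga passed (-0.79, adjusted p = 0.0390) and no other member's call changed; over all genes 1329 were higher and 1404 lower, instead of 982 and 1029. Each array correlated best with its own number, a hint from the data and not from the design. Chga also passed with array weights (-1.16).

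The same alternatives were run for the granule biogenesis and exocytosis list after its count was seen. With 6 fallen and 0 risen as reported, 0 fell with labels by source name, without both arrays with contradicting labels and on slide 1 alone, 3 without a filter on dim probes, and 10 with array weights. Leaving out 1 array gave 3 to 8 fallen and 0 to 1 risen. It had 2 risen with the replicate block or array weights, and 1 risen without both arrays with contradicting labels, with slide as a block, after normexp, with the filter at all 6 arrays, with the mean of probes, with every probe as a feature, or at an adjusted p under 0.10. With the array median as scale, 28.8% of all calls were higher instead of 48.8%, and all genes called ranged from 0 (labels by source name; limma, with 207 at an unadjusted p under 0.05) to 7097 (array weights). Dim members (Scgn, Pcsk2, Scg3) are limited by signal over background. Where not stated, the cause was not tested.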
